A study of Mus musculus with 10 samples.

Results

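Integrins are paired alpha and beta chains that hold cells to matrix and to each other, and the cell surface proteins that leukocytes use beside them are selectin ligands, immunoglobulin-family counter-receptors and cadherins. This account follows 37 such genes, listed by name, through RNA sequencing of sorted mouse brain cells after ischemia. The list was made with earlier results of these data known. The count table held 36 of them among 28585 genes, and Icam4 was not analysed here. 33 had enough counts to be tested, 32 without Itgax. Itga2, Itga7 and Itgb6 were in the table but not tested. Itgax encodes CD11c, and its promoter drives the reporter used for sorting, so its differences are reported apart at the end. Counts over the 18 genes given in full below include it.

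10 libraries came from the ischemic hemisphere, 9 of them labelled as from female mice. 3 libraries (39, 40 and 41) hold microglia of CX3CR1CreERT2:Rosa26-tdT mice aged 13 to 14 weeks, sorted for tdTomato. 3 libraries (3, 11 and 15), called parabiotic here, hold CD11c-eYFP+ cells of C57BL/6 mice joined in circulation to a Tg(Itgax-Venus)1Mnz partner, aged 15 to 16 weeks. 4 libraries (23, 24, 26 and 27), called transgenic, hold CD11c-eYFP+ cells of Tg(Itgax-Venus)1Mnz mice aged 13 to 14 weeks. A fluorescent cell in the C57BL/6 mouse of a parabiotic pair must derive from its partner, while in the transgenic mouse any cell that uses the Itgax promoter can carry the reporter, resident cells included. The Cre driver marks cells that use Cx3cr1, which is not restricted to microglia in general. All groups carried a brain lesion, so no uninjured control enters. Library 15 was placed by its title and age, since its labels name no cell type or sex and give strain and genotype in another form.

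In leukocytes, integrins with the beta2 chain bind ICAMs on vessels and other cells, and integrins with alpha4 bind VCAM-1 and, when paired with beta7, MAdCAM-1. AlphaE pairs only with beta7 and binds E-cadherin. Integrins that bind the RGD tripeptide, such as alphav with beta3 or beta5, recognise vitronectin, fibronectin and latent TGF-beta, and alphav with beta5 or beta3 also takes part in the uptake of dying cells.

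Library totals ran from 31534625 to 41730688 counts and levels are given in CPM, counts relative to the library total after TMM scaling. The sort labels were set against marker genes of each type. Summed CPM of 9 microglia markers were 20654 to 23101 in microglia, 2062 to 3606 in parabiotic cells and 6332 to 18275 in transgenic cells. Summed CPM of 8 conventional dendritic cell markers were 243 to 380 in microglia, 31302 to 40277 in parabiotic cells and 4701 to 19414 in transgenic cells. Monocyte markers summed to 31.2 to 53.6 CPM in microglia, 818 to 1007 in parabiotic cells and 224 to 588 in transgenic cells. The transgenic libraries thus held RNA of microglia and dendritic cell markers. In dendritic cell and monocyte markers, libraries 23 and 24 stood above 26 and 27, whose library numbers belong to a separate, higher series. In microglia markers 23 and 24 lay between 27 (6332 CPM) and 26 (18275 CPM). The labels do not say whether a library is 1 animal, so p-values measure the spread between these libraries. In bulk samples, fewer cells of a type and less RNA per cell cannot be told apart.

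The 250 bases before the RefSeq start of 4 members are shown because these genes carry the main contrasts below: the 2 chains of the alpha4beta7 integrin, both higher in the CD11c sorts than in microglia, and a receptor and its ligand, Itgam and Icam1, both lower. The sequences are from RefSeq on GRCm38.p6, on the strand of the gene, and capitals mark motif matches on either strand. The intervals are chr15:102231936-102232185 (minus strand) for Itgb7, chr2:79255176-79255425 (plus) for Itga4, chr9:21015690-21015939 (plus) for Icam1 and chr7:128062390-128062639 (plus) for Itgam.
Itgb7: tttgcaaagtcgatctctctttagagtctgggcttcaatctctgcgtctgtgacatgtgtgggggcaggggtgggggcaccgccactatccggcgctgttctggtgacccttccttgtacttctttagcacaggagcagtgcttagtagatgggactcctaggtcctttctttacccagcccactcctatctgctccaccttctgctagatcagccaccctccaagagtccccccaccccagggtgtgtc
Itga4: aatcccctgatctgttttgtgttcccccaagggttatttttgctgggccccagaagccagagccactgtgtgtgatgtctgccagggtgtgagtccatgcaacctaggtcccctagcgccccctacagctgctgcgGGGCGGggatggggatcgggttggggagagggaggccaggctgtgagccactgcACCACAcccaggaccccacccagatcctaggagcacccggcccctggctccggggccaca
Icam1: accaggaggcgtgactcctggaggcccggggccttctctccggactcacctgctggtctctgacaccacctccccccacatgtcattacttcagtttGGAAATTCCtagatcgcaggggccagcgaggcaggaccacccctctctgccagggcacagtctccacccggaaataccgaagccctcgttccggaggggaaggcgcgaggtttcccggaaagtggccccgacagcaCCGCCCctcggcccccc
Itgam: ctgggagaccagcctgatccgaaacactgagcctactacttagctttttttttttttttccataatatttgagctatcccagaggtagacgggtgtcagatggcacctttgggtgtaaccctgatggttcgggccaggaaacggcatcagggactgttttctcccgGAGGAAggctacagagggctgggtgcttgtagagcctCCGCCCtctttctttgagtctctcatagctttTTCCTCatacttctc

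6 motifs were searched on both strands in 32851 RefSeq windows of this length. GAGGAA, a core bound by the myeloid factor PU.1, was in 23.3% of them, TGTGGT, bound by RUNX factors, in 14%, and GGGCGG, the GC box, in 32.7%. The NF-kappaB forms GGAAANTCC and GGGNTTTCC were in 1.07% and 1.46%, and TATAAA was in 12.4%. The Itgam window held 2 copies of GAGGAA, 1 on each strand, and 1 GC box. Itga4 held 1 TGTGGT on the reverse strand and 1 GC box. Icam1 held GGAAATTCC, starting 153 bases before the start, and 1 GC box on the reverse strand. Itgb7 matched no motif searched. The percentages above are per window, while a listed gene was counted below if any of its windows matched, so they are not on the same scale. The RefSeq table matched 23 of the 37 listed genes. Of these, 10 held GAGGAA (Alcam, Cd44, F11r, Itga2b, Itga3, Itga5, Itgam, Itgav, Itgb1 and Itgb6), 12 held the GC box, 2 held TGTGGT (Itga3 and Itga4) and none held TATAAA. A match describes the letters and is not a binding site.

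Fold changes below are log2 values from the edgeR quasi-likelihood test fitted on all 10 libraries, with p-values adjusted over the 15151 genes tested and a threshold of 0.05. In parabiotic cells against microglia, 35.3% of all tested genes passed, 17.4% higher and 17.9% lower. Of the 32 adhesion genes tested besides Itgax, 11 were higher and 8 lower, which is 34.4% and 25% of them, and 13 did not pass. Their median log2 fold change was 0.25, beside -0.02 over all genes. The libraries of both groups did not overlap for 15 members on the higher side and 11 on the lower side, where 30.5% and 29.7% of all genes did not, 60.3% in all. The 11 higher genes were Cdh1, Itgb7, Alcam, Itgae, Itga4, Cd44, Itga8, Itga3, Itga2b, Itgal and Cd47. The 8 lower genes were Itgb3, Vcam1, Icam1, Selplg, Itgam, Cd9, Itgb5 and F11r.

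In transgenic cells against microglia, 13.7% of all genes passed, 8.88% higher and 4.79% lower. Among the 32 members, 8 were higher (25%), 5 were lower (15.6%) and 19 did not pass, with a median of 0.16 beside 0.02 over all genes. The libraries did not overlap for 9 members on the higher and 8 on the lower side, beside 15.6% and 14.7% of all genes, 30.3% in all. The 8 higher were Cdh1, Itgb7, Alcam, Itgae, Itga8, Itga4, Cd44 and Itgal, and the 5 lower were Itgb3, Selplg, Vcam1, Icam1 and Itgam. Both comparisons against microglia share the 3 microglia libraries. Transgenic against parabiotic cells gave 10.1% of all genes that passed, 7.63% higher and 2.42% lower. There 6 members were higher in transgenic cells (Itgb3, Vcam1, Icam1, Cd9, Itgam and Itga5) and 1, Cd44, was lower, and 25 did not pass, with a median of -0.21 beside 0.04 over all genes. Libraries did not overlap for 8 members on the higher and 7 on the lower side, beside 12.4% and 10.3% of all genes, 22.7% in all.

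**Figure D1:**
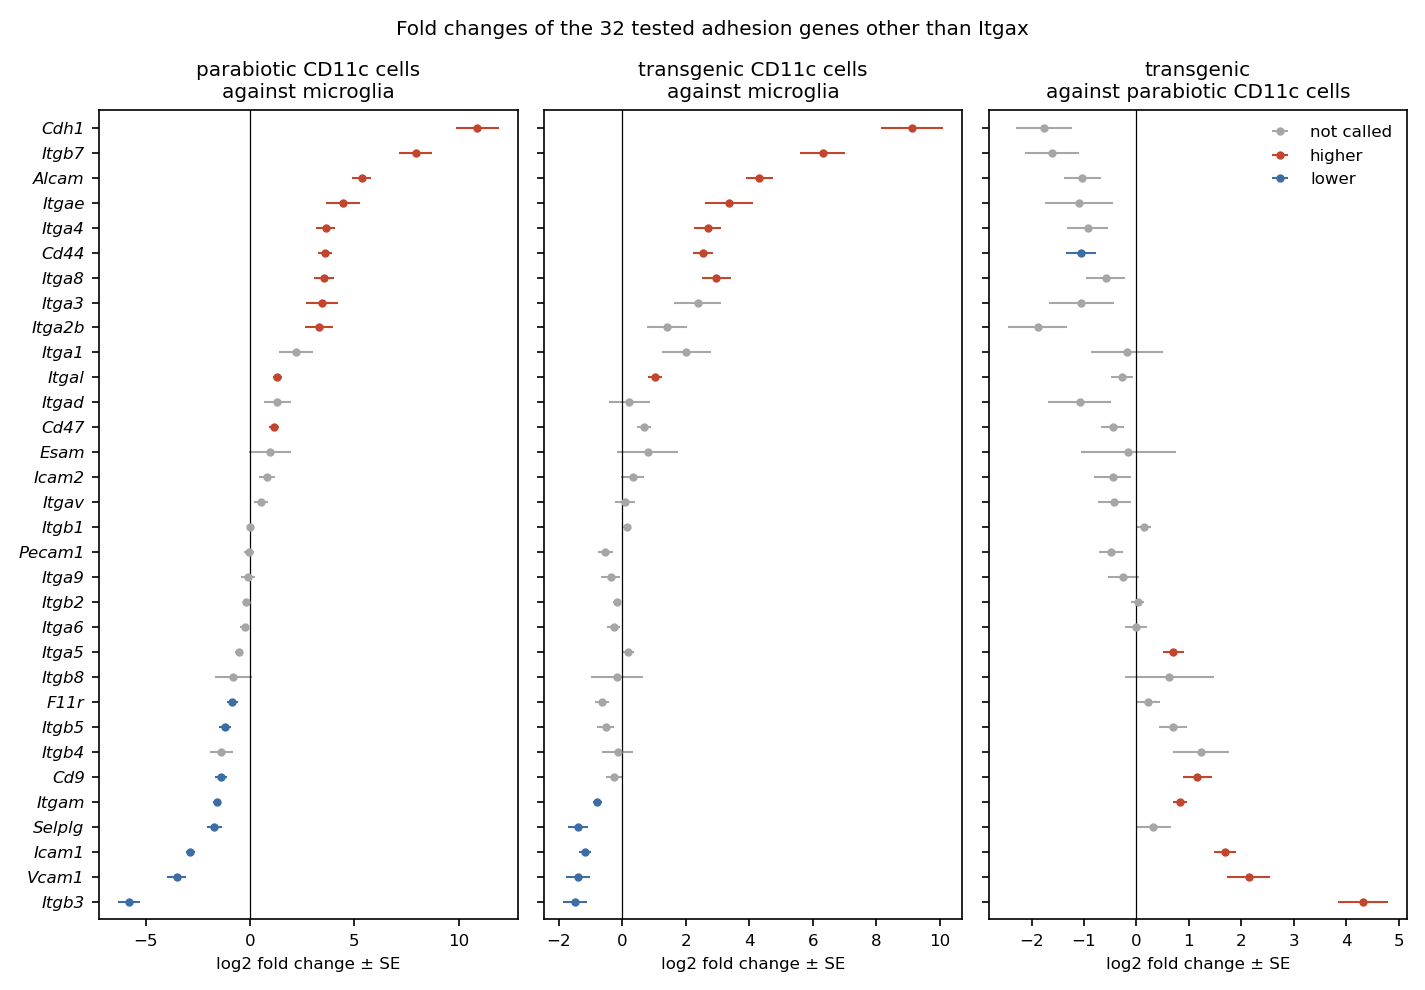
Log2 fold changes with standard errors of the 32 tested adhesion genes other than Itgax in each of the 3 comparisons, ordered by the first, with red for higher, blue for lower and grey for genes that did not pass adjusted p 0.05. Cdh1 and Itgb7 stand at the upper end and Itgb3 at the lower end of both comparisons against microglia, and the horizontal scales differ between panels.

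The beta chains set which heterodimers can form. Per kilobase of exon, Itgb5 was the most abundant beta chain in all 3 groups, with 792 ± 86.1 CPM per kb (mean ± SD) in microglia, 341 ± 73 in parabiotic and 549.6 ± 169 in transgenic cells. Itgb2 followed with 315 ± 11.2, 275 ± 7.48 and 279 ± 21.4, and Itgb1 with 146 ± 9.87, 145 ± 3.6 and 160.5 ± 11.7 CPM per kb. Itgb5 and Itgb2 levels did not overlap within microglia or within parabiotic libraries, but transgenic library 27 had Itgb5 at 296 CPM per kb, within the Itgb2 range of 253 to 300.3. The place below these 3 was taken by Itgb3 in microglia, at 17.1 ± 0.502 CPM per kb, with Itgb7 at 0.407 ± 0.244. In parabiotic cells it was Itgb7, at 99.9 ± 24.2 CPM per kb, with Itgb3 at 0.305 ± 0.0127. Transgenic cells held both, Itgb7 at 32.7 ± 19.9 and Itgb3 at 6.11 ± 3.48 CPM per kb.

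**Figure D2:**
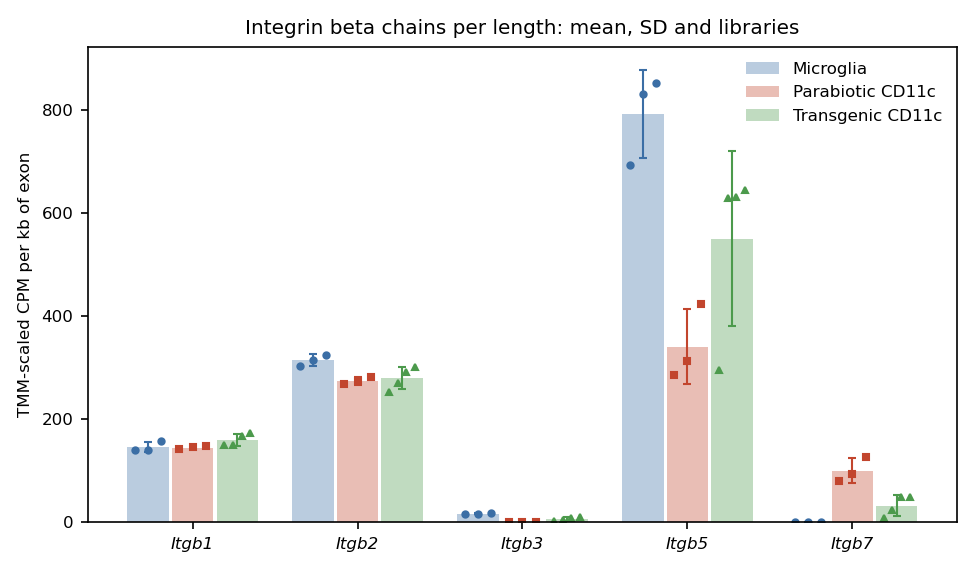
Levels of 5 integrin beta chains in CPM per kb of exon, with bars for group means, whiskers for SD and points for the libraries of microglia (3), parabiotic CD11c (3) and transgenic CD11c cells (4). Itgb1 and Itgb2 are close to level across groups, Itgb5 and Itgb3 are highest in microglia and Itgb7 is highest in parabiotic cells.

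Itgb7, the beta chain of the gut-homing alpha4beta7 and of alphaEbeta7, had 1.47, 1.57 and 0.348 CPM in microglia libraries 39, 40 and 41. Parabiotic libraries 3, 11 and 15 held 351, 221 and 258 CPM, and transgenic libraries 23, 24, 26 and 27 held 134, 138, 25.5 and 64.3 CPM. The 3 groups did not overlap, with microglia lowest and parabiotic cells highest. Itgb7 was higher than in microglia by 7.93 ± 0.77 (SE; adjusted p = 2.64e-05) in parabiotic and by 6.31 ± 0.71 (SE; adjusted p = 0.000355) in transgenic cells. The difference between both CD11c sorts, -1.61 ± 0.52 (SE; adjusted p = 0.0783), did not pass. The libraries are given in this order from here on.

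Itgae, the alphaE chain known as CD103 on a subset of conventional dendritic cells and on tissue T cells, had 5.03, 4.42 and 3.39 CPM in microglia and 97.2, 79.8 and 107 in parabiotic cells. Transgenic libraries held 93.5, 61.6, 15.8 and 6.75 CPM, so that 23 lay inside the parabiotic range and 27 just above microglia. It was higher by 4.47 ± 0.81 (SE; adjusted p = 0.00153) in parabiotic and by 3.37 ± 0.76 (SE; adjusted p = 0.015) in transgenic cells against microglia. The transgenic call was lost without any single microglia library (adjusted p = 0.0613 to 0.0735 without 39, 40 or 41), with limma-voom and with no filter on low counts (adjusted p = 0.0789 to 0.0874). T cell markers, 7 genes, summed to 3.33 to 13.3 CPM in microglia, 11.4 to 24.7 in parabiotic and 2.46 to 24.2 in transgenic libraries, and their part in the result was not tested.

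Itga4, the alpha4 chain of VLA-4 and alpha4beta7, had 10.6, 13 and 9.43 CPM in microglia, 143, 135 and 129 in parabiotic cells and 100.3, 108, 24.5 and 52 in transgenic cells. No groups overlapped. The fold changes against microglia were 3.62 ± 0.47 (SE; adjusted p = 0.000166) in parabiotic and 2.69 ± 0.44 (SE; adjusted p = 0.0029) in transgenic cells. Per kilobase, Itga4 stood to Itgb7 at a ratio of 0.0806 to 0.121 in parabiotic and 0.148 to 0.191 in transgenic libraries, against 1.44 to 5.37 in microglia, where both genes were low. Cerkl, a neighbouring gene, overlaps 8.04% of the exon bases of Itga4. Itga9, the related alpha9 chain, did not pass in any comparison, with means of 56 ± 6.74, 51.7 ± 13.9 and 43.5 ± 17.8 CPM in microglia, parabiotic and transgenic cells.

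Cdh1 encodes E-cadherin, the ligand of alphaEbeta7 and an adhesion molecule of Langerhans and other dendritic cells. Microglia held 0, 2 and 2 counts of it, 0, 0.0614 and 0.0633 CPM. In parabiotic cells it stood at 86, 59.1 and 105 CPM and in transgenic cells at 39, 34.5, 4.68 and 19.9 CPM, with no overlap between any groups. The fitted fold changes against microglia were 10.89 ± 1.01 (SE; adjusted p = 1.99e-05) and 9.13 ± 0.98 (SE; adjusted p = 0.00026). Both rest on 4 counts in all microglia libraries together (exact 95% Poisson interval 1.09 to 10.2, counting error only), so their size is loosely bound. Between both CD11c sorts the difference of -1.77 ± 0.53 (SE; adjusted p = 0.0596) did not pass.

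Of the chains that bind RGD ligands, alphav passed in no comparison, while its partners Itgb3 and Itgb5 passed in at least 1. Itgav, the alphav chain, had 239, 274 and 229 CPM in microglia, 281, 369.8 and 407 in parabiotic cells and 376, 364, 177 and 136 in transgenic cells, with a fold change of 0.51 ± 0.35 (SE; adjusted p = 0.281) for parabiotic cells against microglia. Itgb3 had 100.3, 97.9 and 104 CPM in microglia, 1.75, 1.89 and 1.76 in parabiotic cells and 57.4, 48.8, 25 and 13.1 in transgenic cells. Each parabiotic library was below every other library, and the transgenic ones lay in between without overlap. Itgb3 was lower, at -5.80 ± 0.51 (SE; adjusted p = 1.58e-05) in parabiotic cells than in microglia, and higher by 4.32 ± 0.47 (SE; adjusted p = 0.000293) in transgenic than in parabiotic cells. The lower level in transgenic cells than in microglia, -1.48 ± 0.38 (SE; adjusted p = 0.0273), was lost without microglia 39, 40 or 41 or transgenic 26 (adjusted p = 0.0509 to 0.0955) and with only these groups in the fit (adjusted p = 0.0682).

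Itgb3 is also the beta chain of the platelet integrin with Itga2b. Summed over 7 genes, platelet markers came to 5.41 to 9.12 CPM in microglia, with Ppbp and Gp6 at 0 in all 3 libraries. They came to 1.15 to 5.05 CPM in parabiotic cells and to 1.9 to 3.61 in transgenic cells. Gp6 was also at 0 in each transgenic library. Itga2b itself went the other way from Itgb3, with 0.339, 0.307 and 0.095 CPM in microglia and 2.93, 2.46 and 2 in parabiotic cells, a difference of 3.29 ± 0.68 (SE; adjusted p = 0.00323). The part of platelets in these values was not tested.

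Itgb5, the beta chain of alphavbeta5, had 2462, 2950.1 and 3025 CPM in microglia and 1019, 1109 and 1506 in parabiotic cells, without overlap, and was lower there, at -1.22 ± 0.28 (SE; adjusted p = 0.00673). Transgenic libraries held 2242, 2231, 2287 and 1050.1 CPM, of which 27 fell in the parabiotic range and the other 3 above it. Neither transgenic comparison passed, with -0.53 ± 0.26 (SE; adjusted p = 0.187) against microglia and 0.69 ± 0.27 (SE; adjusted p = 0.138) against parabiotic cells. Per kilobase, the ratio of Itgb5 to Itgav was 31.1 to 39.9 in microglia, 9.07 to 11.2 in parabiotic and 18 to 39 in transgenic libraries. Itga5, the alpha chain of the fibronectin receptor, had 190.3, 277 and 252 CPM in microglia, 191, 160.3 and 151 in parabiotic cells and 281, 289, 204 and 318 in transgenic cells. It was higher in transgenic than parabiotic cells by 0.71 ± 0.19 (SE; adjusted p = 0.0394), the smallest change among the members called there. This call was lost without microglia 40 or 41, any parabiotic library, or transgenic 23 or 24 (adjusted p = 0.0547 to 0.162), with no low-count filter and with only these groups in the fit (adjusted p = 0.0542 to 0.0585).

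Itga8, which binds nephronectin and fibronectin, passed at low levels, with 0.226, 0.215 and 0.253 CPM in microglia, 2.58, 2.68 and 2.98 in parabiotic cells and 2.12, 2.64, 0.835 and 1.73 in transgenic cells. It was higher than in microglia by 3.55 ± 0.47 (SE; adjusted p = 0.000185) and 2.97 ± 0.45 (SE; adjusted p = 0.00188). Itga3, a laminin receptor chain, was likewise low, at 0.226, 0.307 and 0.095 CPM in microglia against 2.56, 2.04 and 2.28 in parabiotic cells, a difference of 3.43 ± 0.77 (SE; adjusted p = 0.00538). Transgenic cells, at 2.04, 1.13, 0.152 and 1.1 CPM, gave 2.37 ± 0.73 (SE; adjusted p = 0.0528) against microglia, which did not pass.

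Several abundant chains passed in no comparison. Itgb1, the partner of most matrix-binding alpha chains, had 571, 572 and 641 CPM in microglia, 594, 577 and 606 in parabiotic cells and 613, 616, 682 and 709 in transgenic cells. The fold change of parabiotic cells against microglia was -0.00 ± 0.14 (SE; adjusted p = 0.983). Itga6, the laminin-binding chain that pairs with it, had 529, 546 and 569, 389.5, 498 and 483 and 529.8, 589, 340.3 and 357 CPM in the same order, and a fold change of -0.26 ± 0.22 (SE; adjusted p = 0.386). With Itgb2, Itgav, Itga9 and Pecam1 they make the 6 members with at least 10 CPM in some group that passed in none of the 3 comparisons.

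The other low members need only their range. 12 members stayed under 10 CPM in every group, with group means between 0 and 5.32 CPM: Esam, Icam2, Itga1, Itga2, Itga2b, Itga3, Itga7, Itga8, Itgad, Itgb4, Itgb6 and Itgb8. Icam2 was the highest of these, with 5.69, 3.95 and 6.31 CPM in parabiotic cells and 1.89, 3.44 and 3.89 in microglia libraries and no call. Itgb6, an epithelial chain, had 1, 11 and 4 counts in parabiotic libraries and 0 in all 7 others. For a group with 0 counts the exact 95% Poisson interval reaches 3.69 counts, counting error only. Itga2, a collagen receptor chain, had 2 counts in microglia, 1 in parabiotic and 3 in transgenic cells.

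Leukocytes pair Itgb2, the CD18 chain, with Itgal (LFA-1), Itgam (Mac-1, complement receptor 3), Itgax and Itgad. Itgb2 itself had 962, 925 and 993 CPM in microglia, 863, 817 and 835 in parabiotic cells and 917, 893, 826 and 773 in transgenic cells. The fold change of parabiotic cells against microglia, -0.20 ± 0.14 (SE; adjusted p = 0.296), did not pass although the libraries did not overlap. Itgam had 691, 682 and 654 CPM in microglia, 228, 235 and 203 in parabiotic cells and 426, 437, 357 and 354 in transgenic cells, again in 3 ranges without overlap. It was lower than in microglia, at -1.61 ± 0.15 (SE; adjusted p = 1.99e-05) in parabiotic and -0.78 ± 0.14 (SE; adjusted p = 0.00431) in transgenic cells, and higher by 0.83 ± 0.14 (SE; adjusted p = 0.00337) in transgenic than in parabiotic cells.

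Itgal went the other way. It had 24, 17.8 and 26.7 CPM in microglia, 53, 67 and 50 in parabiotic cells and 57.8, 43.7, 34.9 and 51.5 in transgenic cells, and the CD11c sorts overlapped each other but not microglia. It was higher by 1.31 ± 0.23 (SE; adjusted p = 0.0011) in parabiotic and by 1.04 ± 0.21 (SE; adjusted p = 0.0101) in transgenic cells than in microglia. The transgenic call was lost without microglia library 40 (log2 fold change 0.86, adjusted p = 0.0694). Itgad stayed at or below 1.7 CPM in every library and did not pass. Neutrophils also express Itgal, Itgam and Itgb2. Summed over 8 genes, neutrophil markers came to 0.339 to 1.93 CPM in microglia, with Ly6g and Retnlg at 0 in all 3. They came to 17.9 to 50.2 CPM in transgenic libraries, with Camp and Ngp at 0 in each. In parabiotic libraries 3, 11 and 15 the sums were 51, 947 and 178 CPM. Parabiotic library 11 was highest of its group in these markers and also in Itgal (67 CPM) and Itgam (235 CPM), but lowest of its group in Itgb2 (817 CPM). The part of neutrophils in these values was not tested.

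Set against each other per kilobase, Itgam made up 97.4% ± 0.529 (SD) of the sum of Itgal, Itgam and Itgad in microglia, 83.4% ± 1.41 in parabiotic and 91.5% ± 1.56 in transgenic cells. Itgal made up 2.52% ± 0.539, 16.2% ± 1.46 and 8.36% ± 1.57 in the same order. No group overlapped another in either share, and the exact two-sided permutation p was 0.1 for parabiotic cells against microglia and 0.0571 for each transgenic comparison, the smallest that 3 against 3 and 3 against 4 libraries allow. These shares depend on how Itgam reads were counted. An overlapping gene model, Gm49368, covers 68.7% of the exon bases of Itgam and is listed apart in the table. It had 1 to 90 counts a library, beside 6687 to 24476 for Itgam, so reads in shared bases were not counted to both genes. No label or header says whether these reads were counted to Itgam or dropped. With only the 1574 exon bases that Itgam does not share, its share became 99.2%, 94.1% and 97.2%, and that of Itgal 0.805%, 5.74% and 2.78%. In these sums without Itgax, the order of the groups was as before under both lengths. With Itgax added, over full lengths, Itgal made up 2.37% ± 0.511 in microglia, 5.5% ± 1.16 in parabiotic and 5.59% ± 1.46 in transgenic cells. There the CD11c sorts overlapped in the Itgal share (exact two-sided permutation p = 0.857). The higher Itgal share in parabiotic than in transgenic cells thus held only without Itgax.

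**Figure D3:**
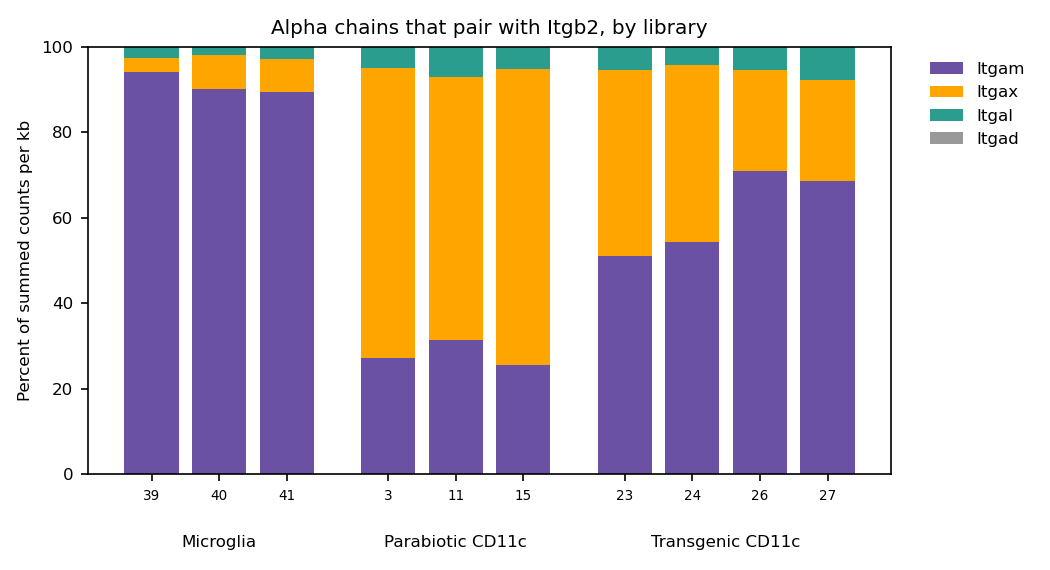
Share of each alpha chain that pairs with Itgb2 in their summed counts per kb over full exon lengths, Itgax included, with 1 stacked bar for each library and its replicate number below. Itgam (purple) fills most of each microglia bar, Itgax (orange) most of each parabiotic bar, and transgenic libraries 23 and 24 hold more Itgax than 26 and 27. Over the exon bases that Itgam does not share, the parabiotic means were 141 CPM per kb for Itgam and 105 for Itgax. The order of both in parabiotic cells thus depends on the length used.

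Counter-receptors of the immunoglobulin family are the ligands of these integrins. Icam1, the ligand of LFA-1 and Mac-1, had 906, 899 and 707 CPM in microglia, 104, 105 and 135 in parabiotic cells and 438, 444, 295 and 301 in transgenic cells. The 3 groups did not overlap, and transgenic 23 and 24 stood above 26 and 27. Icam1 was lower, at -2.87 ± 0.23 (SE; adjusted p = 8.19e-06) in parabiotic and -1.18 ± 0.20 (SE; adjusted p = 0.00332) in transgenic cells than in microglia, and higher by 1.69 ± 0.21 (SE; adjusted p = 0.00052) in transgenic than in parabiotic cells. An antisense gene, Gm47079, overlaps 11.7% of its exon bases, and the library kit keeps no strand.

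Vcam1, the ligand of alpha4beta1, had 189, 169.6 and 99.7 CPM in microglia, 7.09, 11.4 and 21.3 in parabiotic cells and 49.8, 56.1, 37.2 and 90.8 in transgenic cells. It followed the order of Icam1, without overlap between groups, except that transgenic 27 came close to the lowest microglia library. Vcam1 was lower, at -3.52 ± 0.45 (SE; adjusted p = 0.000164) in parabiotic cells than in microglia and higher by 2.14 ± 0.41 (SE; adjusted p = 0.00732) in transgenic than in parabiotic cells. The lower level in transgenic cells than in microglia, -1.38 ± 0.38 (SE; adjusted p = 0.0363), was lost without microglia 39 or 40, parabiotic 11 or transgenic 23, 24 or 26 (adjusted p = 0.0528 to 0.146), with no low-count filter and with a term for the library series (adjusted p = 0.052 to 0.0965). The series term covered transgenic 26 and 27 only, so in that fit the transgenic level rested on 23 and 24. Icam1 and Vcam1 are also abundant in activated vessels and in glia. The 10 endothelial markers summed to 34.9 to 39.7 CPM in microglia, 18.7 to 28 in parabiotic and 15.7 to 33.5 in transgenic libraries, and 6 astrocyte markers to 106 to 179, 6.23 to 9.55 and 24.1 to 57.4 CPM. Their part in the Icam1 and Vcam1 values was not tested.

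Alcam, the ligand of CD6 on T cells, had 2.49, 1.78 and 2.56 CPM in microglia, 127, 83.6 and 68.1 in parabiotic cells and 67.6, 50.6, 19.8 and 43.7 in transgenic cells. Every CD11c library was above every microglia library, and every transgenic one below every parabiotic one. Alcam was higher than in microglia by 5.35 ± 0.46 (SE; adjusted p = 1.27e-05) and 4.32 ± 0.43 (SE; adjusted p = 0.00017), while the difference between both CD11c sorts, -1.03 ± 0.35 (SE; adjusted p = 0.0897), did not pass.

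Of 4 tested junctional members, Cdh1 (higher) and F11r (lower) were called in parabiotic cells against microglia (50%, beside 35.3% of all genes). Cdh1 was called in transgenic cells against microglia (25%, beside 13.7%). So few genes give no reading of junctional members as a group. F11r (JAM-A), a tight junction protein that also binds LFA-1, had 432, 476 and 438 CPM in microglia, 224, 199.8 and 321 in parabiotic cells and 342, 365, 257 and 196 in transgenic cells. F11r was lower, at -0.85 ± 0.25 (SE; adjusted p = 0.0201) in parabiotic cells than in microglia, a call lost without microglia 40 or parabiotic 3 or 11 (adjusted p = 0.061 to 0.0886). Pecam1 (CD31), a homophilic receptor of vessels and leukocytes, had means of 13.8 ± 1.92, 13.4 ± 1.4 and 9.55 ± 2.71 CPM and passed in no comparison. Esam, an endothelial and platelet junction protein, stayed at or below 1.35 CPM.

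Selplg encodes PSGL-1, the selectin ligand on which leukocytes roll. It had 1782, 1749 and 1472 CPM in microglia, 529, 444 and 555 in parabiotic cells and 865, 866, 549.7 and 269 in transgenic cells. Microglia stood above all other libraries, while the CD11c sorts overlapped. Selplg was lower than in microglia, at -1.71 ± 0.36 (SE; adjusted p = 0.00354) in parabiotic and -1.39 ± 0.32 (SE; adjusted p = 0.0187) in transgenic cells. The transgenic call was lost without microglia 39 or 40 (adjusted p = 0.0717 to 0.0768) and with a term for the library series, where the fold change was -0.95 (adjusted p = 0.0544).

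Cd44, the hyaluronan receptor that also carries selectin ligands, had 25, 29.8 and 38.8 CPM in microglia, 434, 394 and 312 in parabiotic cells and 173, 172, 105 and 281 in transgenic cells, without overlap. It was higher than in microglia by 3.61 ± 0.34 (SE; adjusted p = 2.13e-05) and 2.55 ± 0.31 (SE; adjusted p = 0.000572). It was the 1 member lower in transgenic than in parabiotic cells, with a fold change of -1.06 ± 0.28 (SE; adjusted p = 0.0374). That last call was lost without microglia 40, any parabiotic library or transgenic 23 or 24 (adjusted p = 0.0591 to 0.143), with only these groups in the fit and with a term for the library series (adjusted p = 0.0649 to 0.0721).

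Cd9, a tetraspanin that associates with integrins, had 1015, 1337 and 1641 CPM in microglia, 489, 475 and 539 in parabiotic cells and 1046, 1002, 1723 and 713 in transgenic cells. Parabiotic libraries were the lowest, and microglia and transgenic ones overlapped. Cd9 was lower, at -1.41 ± 0.29 (SE; adjusted p = 0.00337) in parabiotic cells than in microglia and higher by 1.16 ± 0.28 (SE; adjusted p = 0.0217) in transgenic than in parabiotic cells. The latter call was lost without any single parabiotic library (adjusted p = 0.0714 to 0.0931) and with a term for the library series (adjusted p = 0.0644). Cd47, the ligand of SIRPalpha that also associates with integrins, had 211, 161 and 215 CPM in microglia, 427, 426 and 439 in parabiotic cells and 257, 267, 269 and 466 in transgenic cells. It was higher in parabiotic cells than in microglia by 1.14 ± 0.23 (SE; adjusted p = 0.00322), and transgenic cells, at 0.69 ± 0.22 (SE; adjusted p = 0.0599) against microglia, did not pass.

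**Figure D4:**
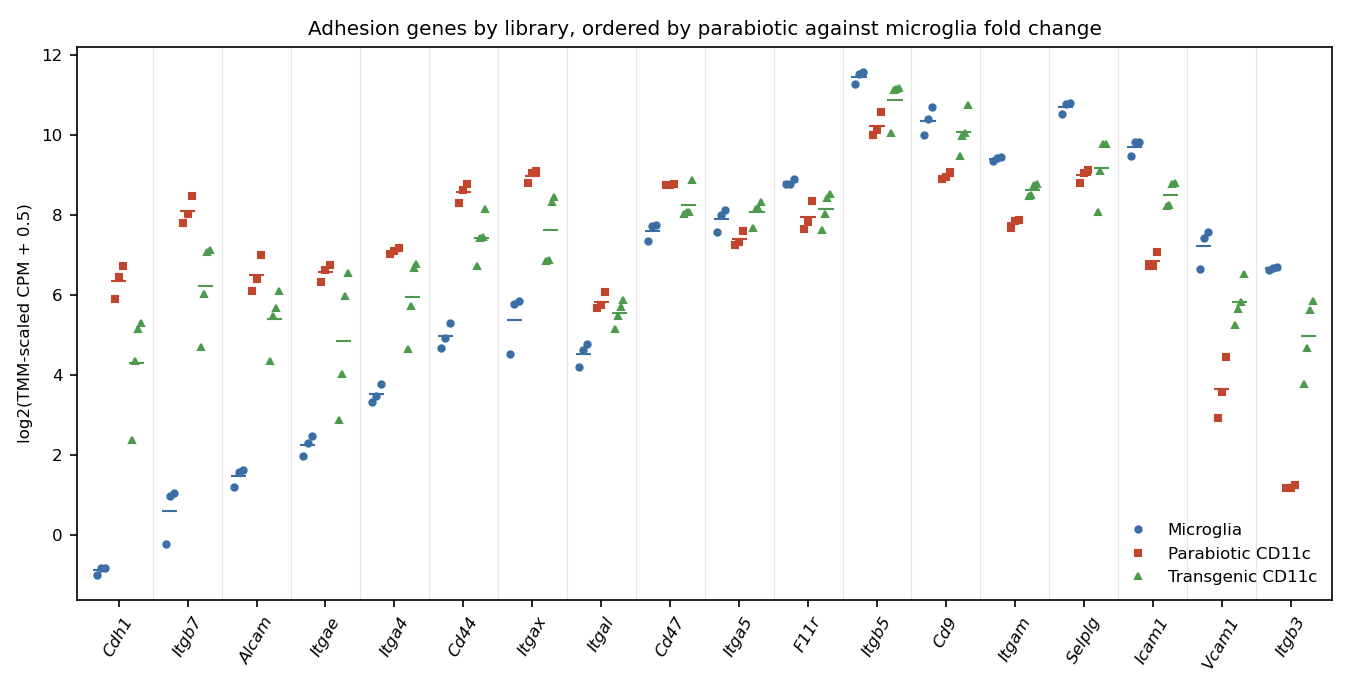
Level of the 18 adhesion genes with full values, as log2(CPM + 0.5), with 1 point for each library and a line at the mean of each group, ordered from the most positive to the most negative fold change of parabiotic cells against microglia. Microglia and parabiotic points separate at both ends, and transgenic points lie mostly between them.

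The transgenic libraries took intermediate values for most of these genes. Of 72 library values, 18 genes in 4 libraries each, 63 lay between the microglia mean and the parabiotic mean on the log2 scale. Itgax, whose promoter drives the sort reporter, is 1 of the 18 genes, and its 4 values are among the 63. These genes were chosen by a call, mostly across this same gap, which leaves room for values between the means. Libraries 23 and 24 were both above 26 and 27 in 11 of the 18 genes, Itgax among them, both below in 1 (Cd47) and mixed in 6. Of the 9 of these genes that were higher in parabiotic cells than in microglia, Itgax among them, 6 had 23 and 24 above and 1 had them below. Of the 8 lower ones, 5 had them above and none below. The larger value divided by the smaller was 1.06 in the median gene for 23 and 24, with 1.52 as the largest, and 2.08 for 26 and 27, with 4.26 as the largest, in Cdh1. These counts and ratios were not taken over all genes, so they cannot be read as particular to adhesion genes.

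The microglia markers summed to 12298, 12411, 18275 and 6332 CPM and the dendritic cell markers to 18145, 19414, 4701 and 7919 CPM in transgenic 23, 24, 26 and 27. Library 26 was highest in the former and lowest in the latter. It was lowest of the 4 in 10 of the 18 genes: Alcam, Cd44, Cdh1, Itga4, Itgal, Itgax and Itgb7, which were higher in parabiotic cells than in microglia, Icam1 and Vcam1, which were lower there, and Itga5, which was not called. It was highest in Cd9 and Itgb5. Library 27 was lowest in the microglia markers and in 7 genes, Cd9, F11r, Itgam, Itgb3, Itgb5, Selplg and Itgae, of which Itgae was higher in parabiotic cells than in microglia and the other 6 lower. It was highest in Cd44, Cd47, Itga5 and Vcam1, and 6 markers of border macrophages summed there to 1201 CPM against 214 to 315 in the other 3. The part of these cell types in the adhesion values was not tested. Without 26 and 27, a setting chosen after seeing the data, the calls of transgenic against parabiotic cells numbered 8 higher and 4 lower, with Itgb5 and Selplg added to the former and Cd47, Cdh1 and Itgb7 to the latter.

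**Figure D5:**
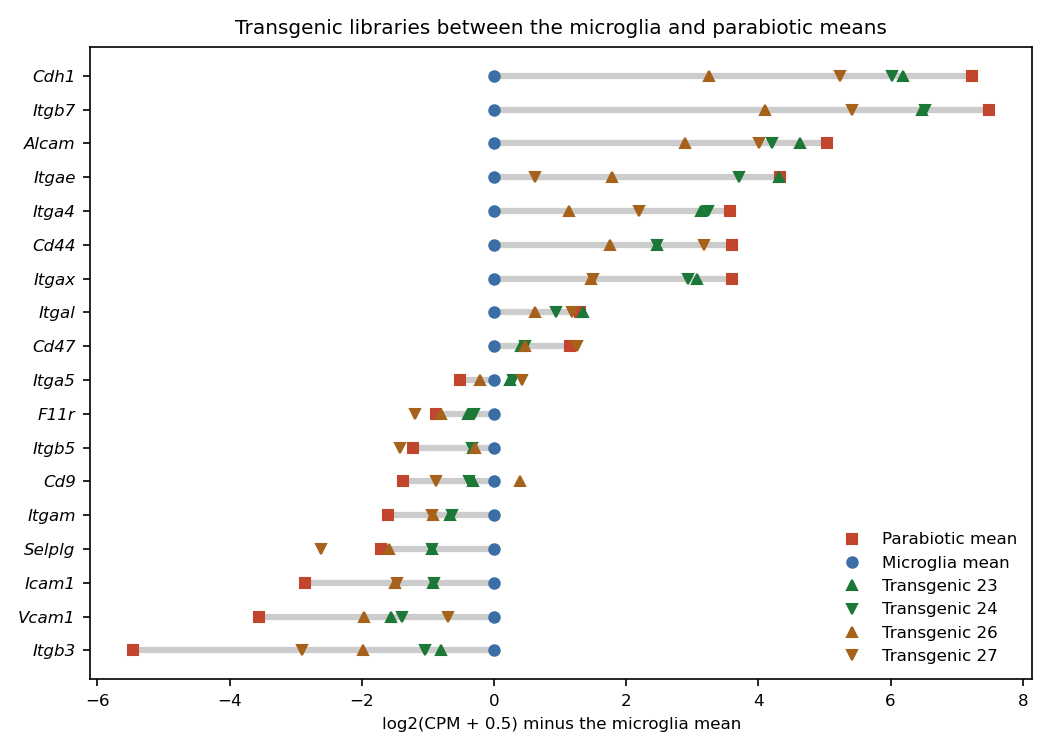
Position of each transgenic library for the 18 genes with full values, as log2(CPM + 0.5) minus the microglia mean, with the microglia mean at 0 (blue), the parabiotic mean in red and the span between them in grey. 63 of 72 points, those of Itgax among them, lie within the span, and 26 and 27 (brown) are farther apart than 23 and 24 (green) for most genes.

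Genes that act with these receptors were followed as named lists. These lists were chosen with earlier results of these data known, so their shares beside those of all genes only describe them. Of 30 tested genes that activate or anchor integrins inside the cell, 9 were higher (30%, beside 17.4% of all genes) and 6 lower (20%, beside 17.9%) in parabiotic cells than in microglia. The other 15 did not pass, and the median was -0.05, beside -0.02 over all genes. Rasgrp2, an exchange factor that activates Rap1, had 0.387 ± 0.113 CPM in microglia and 11.2 ± 2.92 in parabiotic cells (mean ± SD), a change of 4.84 ± 0.35 (SE; adjusted p = 5.7e-06). Cyth1, which binds the tail of beta2 chains, had 71.9 ± 4.38 and 382 ± 45.2 CPM, a change of 2.41 ± 0.22 (SE; adjusted p = 2.01e-05). Tln2, one of both talins that link integrin tails to actin, had 125 ± 6.1 CPM in microglia and 1.08 ± 0.955 in parabiotic cells, a change of -6.85 ± 0.80 (SE; adjusted p = 8.76e-05). The other talin, Tln1, was more abundant, with means of 1007 CPM in microglia and 704 in parabiotic cells. It did not pass, with a change of -0.52 (adjusted p = 0.219). Apbb1ip (RIAM), which brings talin to Rap1, had 139 ± 6.62 and 56.3 ± 2.81 CPM, a change of -1.31 ± 0.18 (SE; adjusted p = 0.000209). In transgenic cells against microglia, 3 of the 30 were higher and 1 lower, 13.3% in all beside 13.7% of all genes.

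Among 18 tested integrin ligands, 5 were higher (27.8%, beside 17.4% of all genes) and 3 lower (16.7%, beside 17.9%) in parabiotic cells than in microglia, with a median of 0.59. Thbs1 (thrombospondin-1, which also binds CD47) had 133 ± 73.3 CPM in microglia, 4617 ± 967 in parabiotic cells and 2122 ± 1384 in transgenic cells, and was higher by 5.12 ± 0.64 (SE; adjusted p = 0.000141) and 4.0 ± 0.60 (SE; adjusted p = 0.00178) against microglia. Edil3 was higher by 1.85 ± 0.57 (SE; adjusted p = 0.0266) in parabiotic cells at a mean of 0.955 ± 0.461 CPM. Madcam1, the ligand of alpha4beta7, had 0.573 ± 0.33 CPM in microglia and 0 counts in every parabiotic library. Icam5, a neuronal ligand of LFA-1, had 0.363 ± 0.0849 CPM in microglia and 0.0101 ± 0.0175 in parabiotic cells.

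Of 18 selectins and other adhesion partners, 8 were higher (44.4%, beside 17.4% of all genes), 7 lower (38.9%, beside 17.9%) and 3 not called in parabiotic cells against microglia, with a median of 0.53. Emb (embigin) had 1.47 ± 0.534 CPM in microglia, 303 ± 78.7 in parabiotic cells and 163 ± 156 in transgenic cells, a parabiotic change of 7.68 ± 0.81 (SE; adjusted p = 4.56e-05). L1cam changed by 3.57 ± 0.52 (SE; adjusted p = 0.000373) to a mean of 12.2 ± 2.95 CPM. Jam2, a junctional relative of F11r, had 91.3 ± 14.9 CPM in microglia, 0.856 ± 0.385 in parabiotic cells and 49 ± 19.99 in transgenic cells. It was lower in parabiotic cells, at -6.73 ± 0.51 (SE; adjusted p = 6.96e-06), and higher in transgenic than parabiotic cells by 5.83 ± 0.49 (SE; adjusted p = 5.35e-05). Nectin2 was lower in parabiotic cells, at -3.96 ± 0.25 (SE; adjusted p = 2.63e-06), from a microglia mean of 81.6 ± 13.5 CPM.

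Tetraspanins, the family of Cd9, gave 3 higher (16.7%, beside 17.4% of all genes), 8 lower (44.4%, beside 17.9%) and 7 not called of 18 in parabiotic cells against microglia, with a median of -0.36. Cd81 had 2103 ± 117 CPM in microglia, 55.8 ± 15.2 in parabiotic cells and 1149 ± 395 in transgenic cells, and was lower in parabiotic cells, at -5.24 ± 0.36 (SE; adjusted p = 4.3e-06). Tspan9 was lower, at -4.38 ± 0.44 (SE; adjusted p = 3.2e-05), while Tspan13 and Tspan2 were higher by 1.48 ± 0.27 (SE; adjusted p = 0.0016) and 3.94 ± 0.77 (SE; adjusted p = 0.00243). Of 4 tested catenins and cadherin partners, 1 was higher (25%, beside 17.4% of all genes) and 1 lower (25%, beside 17.9%) in parabiotic cells than in microglia. The other 2 did not pass, and so few genes give no reading of the list. Ctnna1 (alpha-catenin, which links cadherins to actin) was higher by 0.98 ± 0.19 (SE; adjusted p = 0.00209) and Jup (plakoglobin) lower, at -1.34 ± 0.37 (SE; adjusted p = 0.0156).

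Itgax had 22.6, 56.9 and 53.7 CPM in microglia, 542, 442 and 528 in parabiotic cells and 349, 318, 114 and 117 in transgenic cells. Its promoter drives the reporter by which the CD11c cells were sorted, so the difference from microglia, 3.50 ± 0.51 in parabiotic and 2.34 ± 0.47 in transgenic cells, describes the sort and is no finding. Both CD11c sorts were gated on the same reporter, and transgenic libraries held less Itgax than parabiotic ones without overlap, at -1.17 ± 0.43, which did not pass. Libraries 23 and 24 had 349 and 318 CPM and 26 and 27 had 114 and 117 CPM, and their dendritic cell markers split the same way. Per kilobase of all annotated exon bases, Itgax was the most abundant alpha chain in parabiotic cells, at 105 ± 11.3 CPM per kb. Itga6 stood at 50.6 ± 6.54 and Itgam at 44.1 ± 3.32 CPM per kb. The length of Itga6 also matters, since its exons cover 9.025 kb in all and its longest transcript 4.31 kb. A shorter length raises the value per kb, and the place of Itga6 over its longest transcript was not computed here. Over the unshared exon bases alone, Itgam stood at 141 ± 10.6 CPM per kb and was above Itgax. In microglia, Itgam came first under either of its own lengths, at 135 ± 3.88 CPM per kb over the full length. Itga6 followed at 60.7 ± 2.23 over all its exon bases.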

How the data were processed

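RNA of sorted brain cells was sequenced in 10 libraries: 3 of microglia, 3 of parabiotic and 4 of transgenic CD11c cells, grouped by the labels. Per the labels' protocols, fluorescent cells were sorted without antibodies, and amplified cDNA went into an unstranded library. Per the submitters' processing notes, STAR 2.5.3a and GRCm38 were used. How reads were assigned to genes, by which annotation and with which strand setting, was not given in the sources used. The authors deposited whole-number counts per Ensembl gene.

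Symbols and exon lengths came from GENCODE M21, which held 28492 of the 28585 identifiers. Differences were tested by quasi-likelihood in edgeR 4.0.16 under R 4.3.3 with TMM scaling and robust dispersion, on the 15151 genes that filterByExpr kept, with 1 mean per group over all 10 libraries and Benjamini-Hochberg adjustment at 0.05. The test was also run on counts simulated from the means and dispersions estimated in these data. Such counts follow the model of the test, so they cannot show its error rate in the real libraries. The biological coefficient of variation was 0.317, to which counting error adds for members with few counts. Shares were compared by exact two-sided permutation. Alternatives were RLE and upper quartile scaling, DESeq2 1.42.0, limma-voom 3.58.1, no filter, a stricter filter (5 CPM in 3 libraries), fits of the compared groups alone, a term for the library series, non-robust dispersion, other gene lengths and each library left out.

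Values in every library are given for members with at least 10 CPM in a group and a call in any comparison, and for each pathway list the 2 tested genes with the lowest p in each direction in parabiotic cells against microglia. A few other members are named to account for the list, and Tln1 is given beside Tln2. The members and lists were chosen with earlier results of these data known. 1 gene of the platelet marker list is not reported here and is left out of its sum.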

Additional observations from a re-analysis of the deposited data

Results flagged for a closer look

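2 values in transgenic library 27 stood far from the other 3 libraries of their group by Dixon's gap test on 4 values. Itgb5 was 1050.1 CPM there and 2231 to 2287 in libraries 23, 24 and 26, a gap of 0.955 of the range. Cd47 was 466 CPM there and 257 to 269 in the others, a gap of 0.941 of the range. Chance flags about 1 in 20 groups, and 18 genes were looked at. Summed border macrophage markers were also highest in this library, and their part in both values was not tested.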

How the results depend on the processing

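Of the 37 calls on the 18 genes given in full, Itgax included, 28 were kept under all 20 alternatives, 9 were lost under some, named with their values above, and none reversed. The other 4 calls, on Itga2b, Itga3 and Itga8 (2 comparisons), were kept under 19 and lost with the filter of 5 CPM in 3 libraries, which left these genes untested. The count of members lower in transgenic than in parabiotic cells, 1 in the edgeR fit as reported, was 5 with DESeq2 (Alcam, Cdh1, Itga2b and Itgb7 beside Cd44), 4 with limma-voom and 4 without transgenic 26 and 27, a setting added after seeing the data. It was 0 with only the groups compared in the edgeR fit, where 5 had an unadjusted p at or below 0.05, and 0 with a term for the library series, where 4 did. The series term left 23 and 24 alone to set the transgenic level, as did leaving out 26 and 27. The count lower in transgenic cells than in microglia went from 5 to 3 with the series term. Leaving out 1 library at a time gave 11 to 12 higher and 7 to 9 lower in parabiotic cells against microglia, 6 to 9 higher and 2 to 6 lower in transgenic cells against microglia (2 lower without microglia 39 or 40, 3 without transgenic 26), and 4 to 7 higher and 0 to 2 lower in transgenic against parabiotic cells. That 0 arose without microglia 40, any parabiotic library or transgenic 24, with 5 to 7 members at an unadjusted p at or below 0.05, and the 2 without transgenic 23, 26 or 27. Without parabiotic library 15, placed by its title, all 19 calls of parabiotic cells against microglia held and Itgb4 was added as lower.

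Shares of beta2 partners moved with the gene length used. With the longest transcript, Itgal in parabiotic cells was 18.5% and Itgam 81.1%. With exon bases shared with no other gene, a setting added after seeing the data, Itgal was 0.805%, 5.74% and 2.78% and Itgam 99.2%, 94.1% and 97.2% in microglia, parabiotic and transgenic cells, and with Itgax in the sum, Itgax was 2.1%, 41.2% and 14.6% against 6.26%, 66.3% and 33.1% over full lengths. Leaving out 1 library at a time gave 5.45% to 7.78%, 64.8% to 68.6% and 29.6% to 36.2% for that Itgax share over full lengths. No paired analysis was possible because the groups share no replicate numbers.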
